A study of Rattus norvegicus with 30 samples.

Results

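Msln, Wt1, Upk3b, Lrrn4 and Gpm6a, 5 genes known from mesothelium, were followed through RNA sequencing of CD31-positive rat lung cells. They were chosen from results of these data, on their levels across the 6 groups, the library name ranges and single libraries. Each name matched 1 of the 30562 rows of the deposited table, and all 5 were among the 16171 genes that passed the filter on low counts. Because their own values chose them, their levels and fitted differences are given as a description with no test. Tests are given for other genes, whose lists were also drawn up with earlier results of these data known.

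Wild-type rats underwent a sham operation or Glenn surgery, a shunt that leads blood of the upper body straight into a lung artery, without the blood returning from the liver. Vitamin A in their food was then set by one of 3 modified diets. CD31+ cells of the lung were collected on microbeads 3 weeks later (CD31, the product of Pecam1, marks the endothelial surface). The 6 groups, with 5 libraries each, are called sham control, sham deficient (Vit A deficient diet), sham excess (Vit A excess diet), Glenn control, Glenn deficient and Glenn excess. The labels do not say whether the libraries of a group came from separate animals, so p-values measure the spread between these libraries only. Total estimated counts were 22.03 to 77.6 M per library (median 40.0 M).

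Mesothelium is the single layer of flat cells that covers the lung as visceral pleura and lines the chest wall. Its cells carry features of epithelium, such as keratins, and of mesenchyme, and they secrete lubricating glycoproteins. They also make retinoic acid from vitamin A through Aldh1a2. Mesothelial cells are not the target of a CD31 sort, and other cells can be carried along with sorted cells. In such bulk samples, fewer cells of a type and less RNA per cell cannot be told apart.

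The presence of mesothelial RNA was checked with other genes of the same cells. Of 12 further genes known mostly from mesothelium in lung, 11 were in the table and 8 passed the filter (Upk1b, Bnc1, Nkain4, Rspo1, Aldh1a2, Cldn15, Prg4 and Tbx18). Calb2, Itln1 and Dmkn had at most 5, 39 and 13 counts in any library, and Muc16 was not analysed here. Upk1b, a tetraspanin, was at 83.9 ± 31.2 CPM (counts scaled to a common library total, SD, n = 30), and Tbx18, a transcription factor, at a mean of 2.52 CPM. The sort's own gene Pecam1 was at 1156 ± 199.5 CPM (SD, n = 30), and Cdh5, the endothelial cadherin, at 2236 ± 289 CPM (SD, n = 30). RNA of other lung cells was also present. Sftpc, the surfactant protein of type 2 alveolar cells, was at a median of 21628 CPM. Ptprc, the pan-leukocyte gene CD45, was at 2.42 CPM, while the 5 tested leukocyte markers together held 8074 to 24466 CPM. What each of these markers gave to that sum was not examined, so the sum does not measure leukocyte content.

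The promoters of 3 of the genes are shown because the genes varied together across libraries, as described further on. RefSeq's GRCr8 table matched 4 of the 5 genes and held no entry for Msln. Each sequence runs 5′ to 3′ on the gene's strand, from 250 bases before to 50 after the annotated start. Capitals mark a match to 1 of 5 searched motifs. The coordinates are chr3:112021759-112022058 on the plus strand for Wt1, chr3:140603937-140604236 on the minus strand for Lrrn4 and chr16:43706412-43706711 on the minus strand for Gpm6a.
Wt1: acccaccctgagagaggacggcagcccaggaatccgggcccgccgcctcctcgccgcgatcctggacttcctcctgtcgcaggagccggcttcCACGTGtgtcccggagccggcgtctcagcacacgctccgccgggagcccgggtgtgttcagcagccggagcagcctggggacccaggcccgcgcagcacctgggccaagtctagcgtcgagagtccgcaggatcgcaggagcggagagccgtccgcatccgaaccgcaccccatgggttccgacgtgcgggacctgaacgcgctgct
Lrrn4: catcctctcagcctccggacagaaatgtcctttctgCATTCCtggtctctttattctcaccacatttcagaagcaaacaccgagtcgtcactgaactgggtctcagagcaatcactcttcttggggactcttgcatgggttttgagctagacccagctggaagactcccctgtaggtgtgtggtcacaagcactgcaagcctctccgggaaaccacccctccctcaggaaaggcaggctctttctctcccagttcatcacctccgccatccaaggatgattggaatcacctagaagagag
Gpm6a: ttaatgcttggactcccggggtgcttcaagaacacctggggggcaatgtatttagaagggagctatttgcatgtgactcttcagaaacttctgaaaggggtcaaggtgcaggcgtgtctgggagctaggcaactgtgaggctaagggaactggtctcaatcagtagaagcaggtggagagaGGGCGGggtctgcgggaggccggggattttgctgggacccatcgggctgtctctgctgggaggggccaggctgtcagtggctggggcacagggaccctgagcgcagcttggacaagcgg
The motifs were searched on both strands. They were CATTCC (a TEAD-type site), AGGTCA (a nuclear receptor half-site), CACGTG (an E-box), TATAAA and GGGCGG (a GC box), and none of these contains another. The Wt1 window held CACGTG, found in 6.42% of the 33469 promoters in the table. The Lrrn4 window held CATTCC, found in 14.2%, and the Gpm6a window held GGGCGG, found in 33.1%. AGGTCA, present in 16.2% of all promoters, and TATAAA, present in 14.2%, were in none of the 4 windows, and the Upk3b window held none of the 5 motifs. The 3 printed windows thus shared none of the searched motifs. Their GC content was 71.0% in Wt1, 52.3% in Lrrn4 and 58.7% in Gpm6a, against a median of 51.7% over all promoters. A match describes the letters of the window only, and nothing about a factor follows from its presence or absence.

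A split of the libraries that is in no label touched every one of these genes and is given first. The major histocompatibility gene RT1-CE16 was at 21.9 to 44.4 CPM in 17 libraries and at 407 to 949 CPM in 13. RT1 genes are near-identical copies, so its level is an estimate. Libraries above 100 CPM are called RT1-CE16-high here. This split was made from the data, on a gene that is none of those compared, and is not one of the study's groups. All 8 libraries with names from 598 to 606 were RT1-CE16-high, as were 5 of the 22 with names in the 300s. The 13 high libraries were replicates 3 to 5 of sham control, 4 and 5 of Glenn control, 3 to 5 of sham deficient, 4 and 5 of Glenn deficient and 3 to 5 of Glenn excess, and the sham excess group held 0. Names and RT1-CE16 levels are not said by the labels to mark a strain, a litter or a date.

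Msln (ENSRNOG00000019445) encodes mesothelin, a surface glycoprotein anchored by a lipid that binds the mucin Muc16. In replicate order, its sham control libraries stood at 173, 186, 228, 274 and 248 CPM. Sham deficient libraries stood at 136, 206, 241, 260.3 and 188 CPM. Sham excess libraries stood at 129, 156, 126, 114 and 121 CPM, so that the highest of them was below the lowest sham control library. After Glenn surgery, Msln in the control-diet libraries was 163, 200.3, 142, 323 and 231 CPM. Glenn deficient libraries were at 149, 120.0, 176, 205 and 242 CPM. Glenn excess libraries were at 88.96, 124, 239, 212 and 172 CPM. The last 3 of these are RT1-CE16-high, and each was above both of the others. The 3 Glenn groups overlapped, as they did for each of the other genes.

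Lrrn4 (ENSRNOG00000032989) encodes a membrane protein with leucine-rich repeats and is used as a marker of lung mesothelium. Sham control libraries held Lrrn4 at 103, 97.6, 129, 175 and 177 CPM. The sham deficient values were 83.02, 123, 126, 164 and 129 CPM. Those of sham excess were 72.9, 82.8, 77.97, 79.1 and 78.6 CPM, a spread of only 3.54 CPM (SD, n = 5) around 78.2 CPM. As for Msln, no sham excess library reached the lowest sham control library. In Glenn control, Lrrn4 stood at 106, 149, 102, 209 and 154 CPM. In Glenn deficient it stood at 85.5, 78.9, 103, 134 and 164 CPM. In Glenn excess it stood at 43.6, 66.3, 144, 135 and 94.1 CPM, which spanned the lowest value of all 30 libraries and values inside the control range.

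Gpm6a (ENSRNOG00000010731) encodes a membrane glycoprotein of the proteolipid family, best known from neurons. Its values in sham control were 184, 213, 269, 419 and 344 CPM. For sham deficient they were 162, 258, 412, 418 and 326 CPM. For sham excess they were 157, 212, 187, 158 and 159.9 CPM, of which 2 overlapped with the sham control range and 3 lay below it. Glenn control libraries gave Gpm6a values of 188, 310.1, 181, 400.1 and 319 CPM. Glenn deficient libraries gave 198, 188, 226, 269.9 and 438 CPM. Glenn excess libraries gave 121, 170.5, 367, 271 and 214 CPM. In all 5 groups that hold both levels, every RT1-CE16-high library was above every low one.

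Upk3b (ENSRNOG00000023686) encodes a uroplakin, a membrane protein of the family that coats the bladder surface, and is also made by mesothelium. The sham control values of Upk3b were 8.10, 11.7, 15.9, 30.5 and 20.1 CPM. Sham deficient had 9.85, 16.9, 19.1, 31.2 and 16.7 CPM. Sham excess had 12.5, 9.56, 10.6, 10.1 and 7.81 CPM, of which 4 lay in the lower part of the control range and 1 just below it. Glenn control had 10.2, 20.3, 9.93, 23.8 and 17.2 CPM. Glenn deficient had 6.43, 9.57, 10.5, 15.2 and 23.3 CPM. Glenn excess had 5.21, 5.21, 15.3, 20.7 and 13.2 CPM. Its first 2 Glenn excess libraries were the lowest of all 30.

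Wt1 (ENSRNOG00000013074) encodes a zinc finger transcription factor of the mesothelial lineage. Sham control Wt1 values were 9.03, 8.97, 12.6, 19.8 and 19.2 CPM. They were 4.91, 14.5, 16.1, 15.3 and 12.3 CPM in sham deficient. They were 6.57, 9.01, 9.75, 6.66 and 7.96 CPM in sham excess, where 2 libraries lay in the lower part of the control range and 3 below it. After Glenn surgery, Wt1 was at 6.21, 16.5, 10.6, 20.6 and 15.5 CPM on the control diet. On the deficient diet Wt1 was at 8.04, 6.53, 10.01, 12.1 and 18.8 CPM. On the excess diet Wt1 was at 4.63, 11.1, 14.6, 13.8 and 11.6 CPM. Wt1 had the fewest counts of the 5 genes, 190 to 1284 per library, against 4143 to 15543 for Msln.

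**Figure D1:**
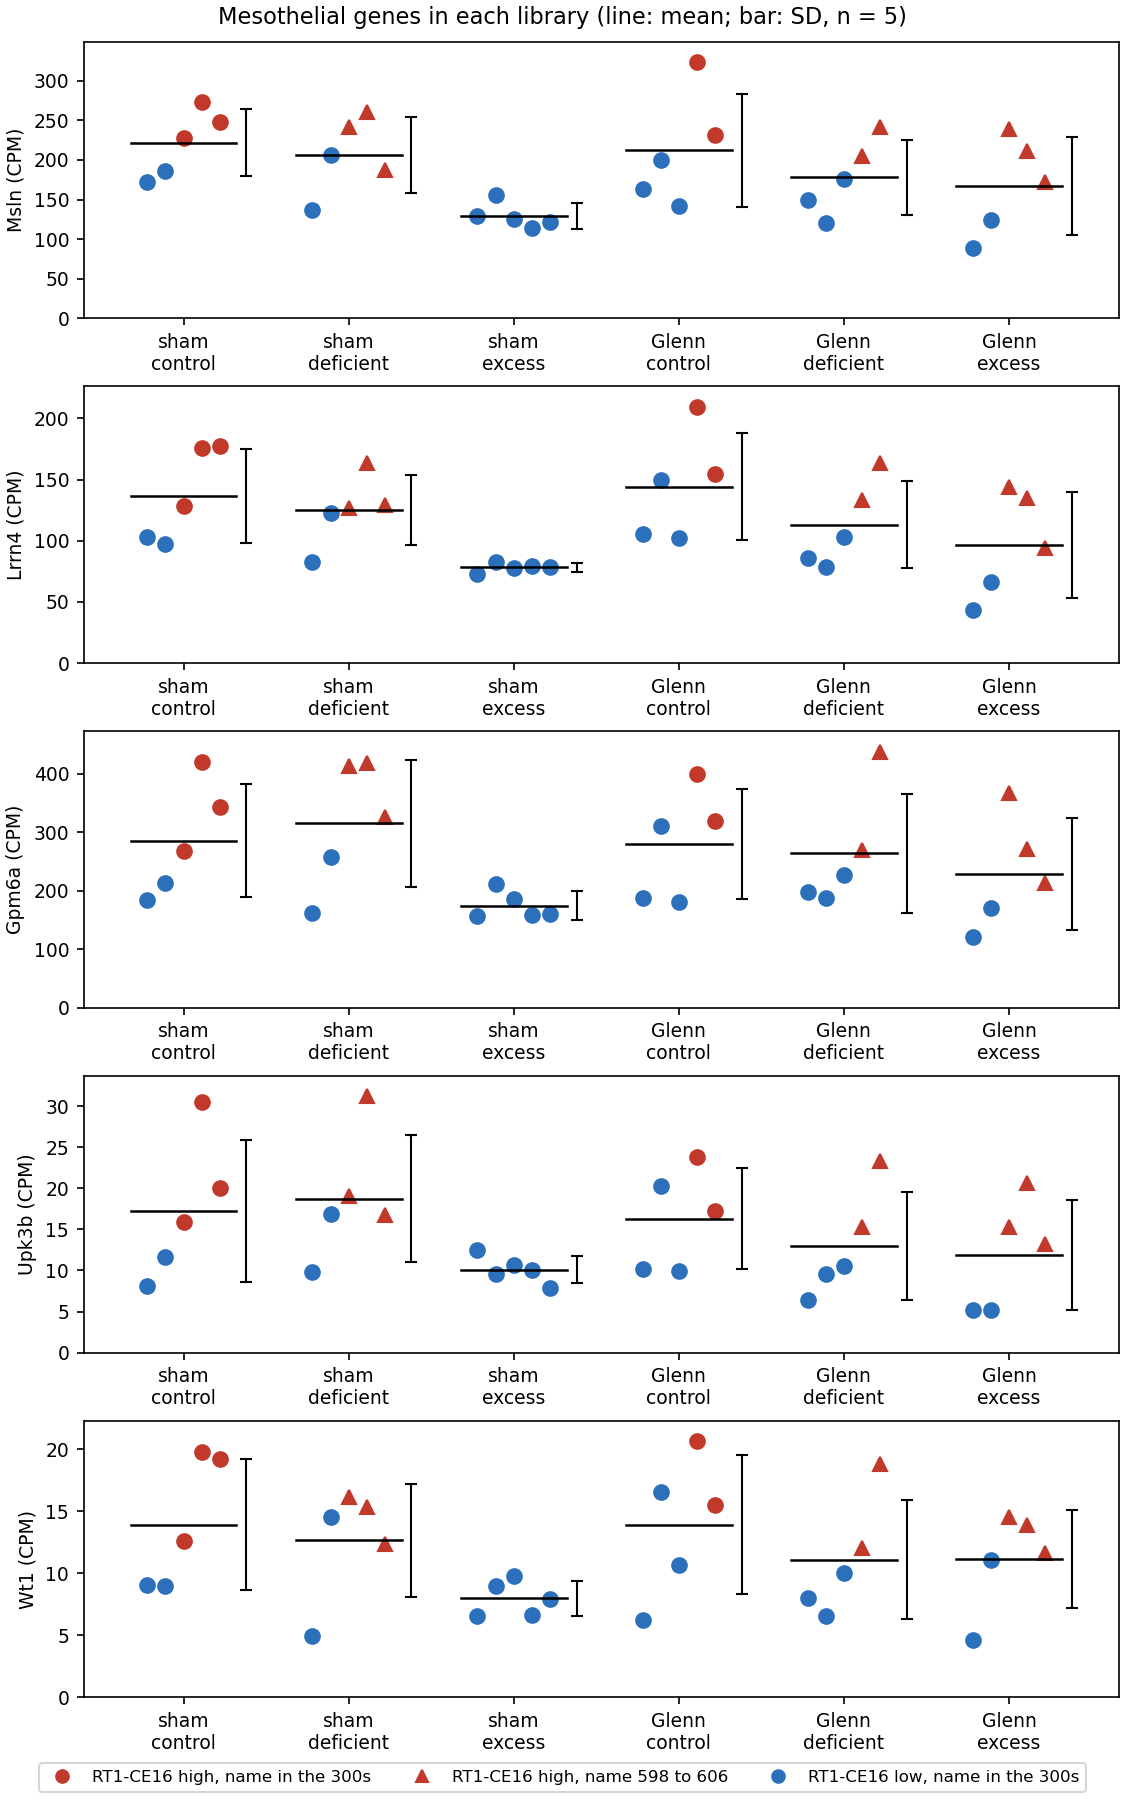
CPM of each gene (vertical axes, from 0) in every library of the 6 groups (horizontal axis); red marks RT1-CE16-high and blue RT1-CE16-low libraries, triangles the names 598 to 606, horizontal lines group means and vertical bars the SD (n = 5). The sham excess group, with no red point, has the lowest mean in all 5 panels.

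All 5 genes had their lowest group mean in sham excess. The highest was in sham control for Msln (221 ± 42.1 against 129 ± 15.8 CPM, SD, n = 5 each) and Wt1 (13.9 ± 5.30 against 7.99 ± 1.41 CPM, SD, n = 5 each). For Upk3b it was in sham deficient (18.7 ± 7.77 against 10.1 ± 1.70 CPM, SD, n = 5 each). Gpm6a was also highest in sham deficient (315 ± 108 against 175 ± 24.2 CPM, SD, n = 5 each), and Lrrn4 in Glenn control (144 ± 43.6 against 78.2 ± 3.54 CPM, SD, n = 5 each). The ratio of the highest to the lowest group mean was 1.71 to 1.85. Glenn excess and Glenn deficient had the next lowest means for all 5 genes, and the sham control, sham deficient and Glenn control means lay above these. Neighbouring means in these orders were closer together than the larger of their SDs.

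Differences between Glenn and sham libraries were described with a fit of all 30 libraries with the 6 groups and a term for the name range. Averaged over diets, the levels of the 5 genes lay close together. Msln was at 186 ± 54.7 CPM in sham libraries and 186 ± 59.6 CPM in Glenn libraries (SD, n = 15 each), and the fitted log2 difference, Glenn minus sham, was -0.08 (SE 0.11, 95% interval -0.31 to 0.14). Gpm6a was at 259 ± 100.5 and 258 ± 92.5 CPM (SD, n = 15 each; log2 difference -0.10, SE 0.13). Lrrn4 was at 113 ± 36.5 and 118 ± 43.0 CPM (SD, n = 15 each; -0.07, SE 0.12), and Wt1 at 11.5 ± 4.63 and 12.05 ± 4.66 CPM (SD, n = 15 each; -0.03, SE 0.17). Upk3b showed the widest gap, 15.4 ± 7.40 against 13.7 ± 6.29 CPM (SD, n = 15 each; -0.36, SE 0.18, 95% interval -0.73 to 0.000158). With no term for the name range, 4 of the 5 differences were above 0 (-0.13 to 0.10), so no direction is given. On the excess diet the differences ran from -0.63 to -0.02 in the fit with the name range and from 0.24 to 0.48 with no term.

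The number past an edgeR quasi-likelihood adjusted p of 0.05 was 0 of 5 averaged over diets, and 0 of 5 had an unadjusted p under 0.05. Over all tested genes, 48.2% passed (7792 genes, median log2 difference -0.01). An unadjusted edgeR p under 0.05 was reached by 53.7% of all genes. DESeq2 and limma voom also passed 0 of 5, against 49.4% and 50.5% of all genes. On single diets the count was again 0 of 5, adjusted or not. By adjusted edgeR p, 24.9% of all genes passed on the control diet, 27.4% on the deficient diet and 21.9% on the excess diet. By unadjusted edgeR p under 0.05 these shares were 35.3%, 37.3% and 33.2%. Since surgery was among the contrasts that chose the genes, nothing is read from these counts. The sham and Glenn ranges of every gene overlapped on each diet. The widest gap on a single diet was that of Upk3b on the excess diet, with a fitted log2 difference of -0.63 (95% interval -1.34 to 0.07).

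Other mesothelial genes could be tested, with limits. Their lists were drawn up with earlier results of these data known. Of the 8 genes known mostly from mesothelium, 5 are among the 15 genes most like the 5 chosen ones, as described further on. Their p-values are therefore not independent of the choice of the 5. The 8 genes known mostly from mesothelium had a median log2 difference of -0.08 averaged over diets, and 1 of them passed. That was Cldn15, a tight junction claudin, which fell by 0.32 on the log2 scale (SE 0.13, edgeR adjusted p 0.0376), a call that was lost in 13 of 30 fits without 1 library (adjusted p 0.00735 to 0.0842). These were the fits without sham control replicate 3 or 4, Glenn control 1, 3 or 5, sham deficient 4, Glenn deficient 1, sham excess 1, 4 or 5, and Glenn excess 2, 4 or 5. It was also lost in the fit with no name-range term (-0.23, edgeR adjusted p 0.197). A further 7 genes made by mesothelium but shared with epithelium, fibroblasts or other cells gave 3 calls, against 48.2% of all genes tested. No response of a list is read from these counts or from the marker counts below. Krt7, a keratin of simple epithelia, rose by 1.16 (SE 0.14, edgeR adjusted p 8.45e-08), and Pdpn, a mucin-type surface protein, rose by 0.97 (SE 0.11, edgeR adjusted p 5.44e-08). C3, the central complement protein, fell by 0.38 (SE 0.14, edgeR adjusted p 0.0261), a call lost without Glenn deficient replicate 2 or 3, sham excess replicate 5 or Glenn excess replicate 1 (adjusted p up to 0.0595). Krt7 and Pdpn rose on each of the 3 diets by edgeR. Prg4, the lubricating proteoglycan lubricin, rose on the deficient diet only by this threshold (0.71, SE 0.26, edgeR adjusted p 0.0456), a call kept in 11 of 30 fits without 1 library and lost with the RT1-CE16 term (0.62, adjusted p 0.0891), and the difference between diets was not tested. Pdpn is also made by type 1 alveolar and lymphatic endothelial cells. Of 8 type 1 marker genes 5 rose and 2 fell, and Ager, their receptor for glycation products, rose by 0.82 (SE 0.12, edgeR adjusted p 2.38e-06). All 6 lymphatic endothelial markers rose (median 1.02), as did 8 of 8 mural markers (median 1.54) and 6 of 8 fibroblast markers (median 0.58). All 7 type 2 alveolar markers fell (median -0.43). Of the 8 endothelial markers 3 rose and 4 fell (median -0.21). Among them Cdh5 fell by 0.25 (SE 0.06, edgeR adjusted p 0.00036), and Pecam1 stood at -0.16 (edgeR adjusted p 0.0692). Of 5 leukocyte markers 1 rose and 2 fell, and of 5 airway markers 1 rose and 1 fell. What part these cells had in the changes of Krt7, Pdpn, C3 and Cldn15 was not tested.

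**Figure D2:**
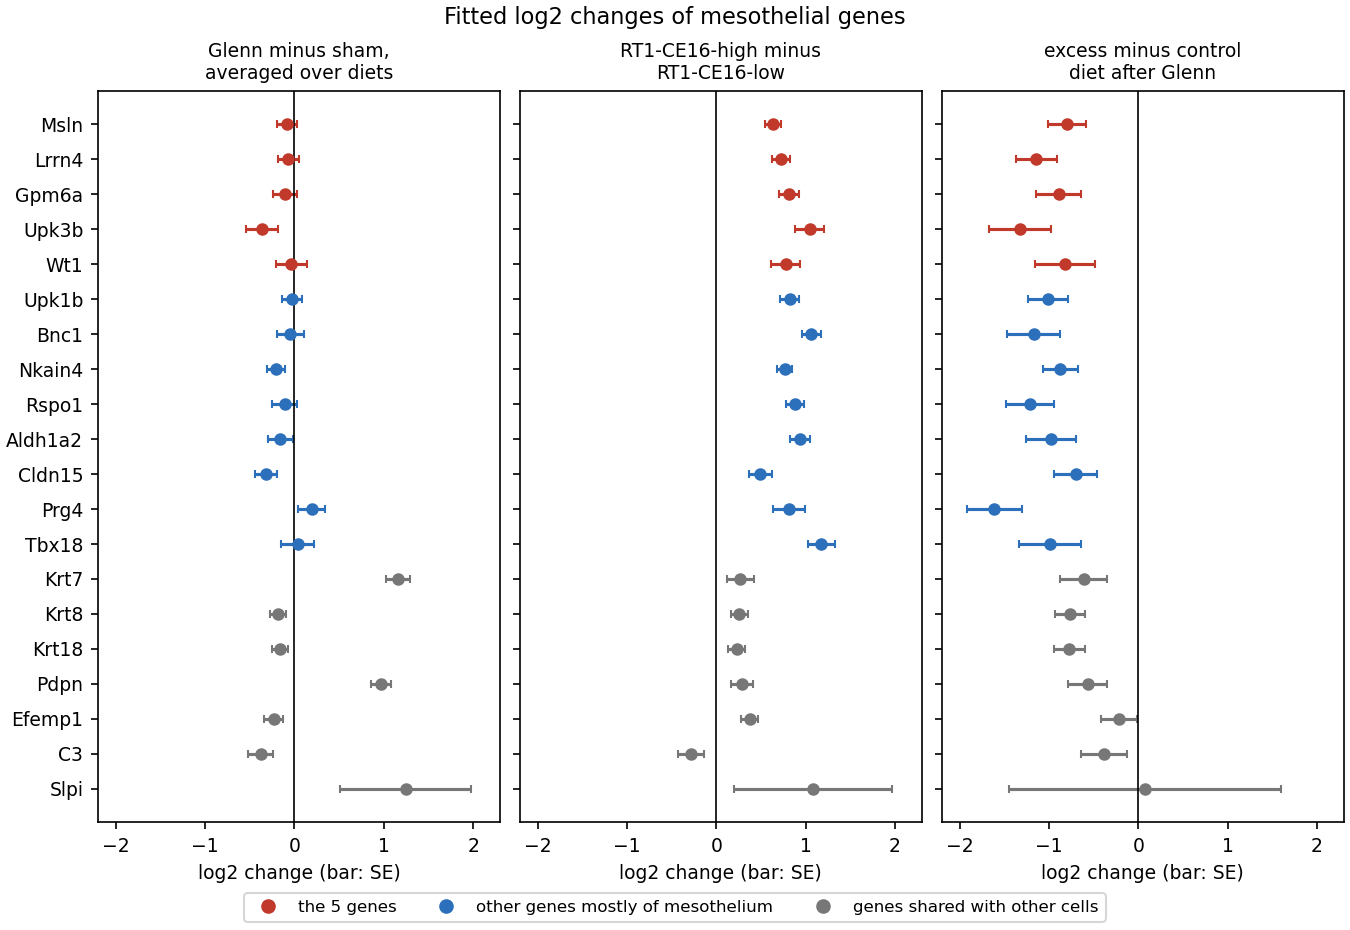
Fitted log2 differences with SE (horizontal axes) of the 5 genes (red), 8 other genes mostly of mesothelium (blue) and 7 genes shared with other cells (grey) in 3 comparisons. Red and blue points lie from -0.36 to 0.19 for surgery, from 0.49 to 1.18 for RT1-CE16 level and from -1.61 to -0.70 for the excess diet after Glenn surgery.

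The levels also differed between the RT1-CE16 classes. Msln was at 236 ± 38.6 CPM in the 13 high libraries and 148 ± 32.5 CPM in the 17 low ones (SD). Lrrn4 was at 149 ± 29.4 and 90.1 ± 23.8 CPM, and Gpm6a at 344 ± 72.2 and 193 ± 43.7 CPM (SD, n = 13 and 17). Upk3b was at 20.2 ± 5.68 and 10.3 ± 3.79 CPM, and Wt1 at 15.6 ± 3.15 and 8.89 ± 3.16 CPM (SD, n = 13 and 17). All 5 genes were thus higher in the high libraries, although the lowest high library of each was below the highest low one.

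In a fit with the RT1-CE16 class as a term in place of the name range, the log2 difference, high minus low, was 0.63 for Msln (SE 0.09, 1.55-fold) and 0.72 for Lrrn4 (SE 0.10, 1.65-fold). It was 0.82 for Gpm6a (SE 0.11, 1.76-fold), 0.78 for Wt1 (SE 0.16, 1.71-fold) and 1.047 for Upk3b (SE 0.16, 2.07-fold). The count past the edgeR threshold was 5 of 5, against 6.53% of all genes tested (1056 genes). Lrrn4 and Gpm6a were higher without overlap in all 5 groups that hold both classes, as were 0.334% of all genes (54 genes). Msln was so in 4 of the 5 groups, and Wt1 and Upk3b in 3. The 0.334% does not apply to these looser counts, for which no share over all genes was computed. Nothing is read from these counts, since single libraries were part of the choice. Within groups the ratio of the class means ran from 1.34 for Msln in sham deficient to 3.15 for Upk3b in Glenn excess, where 2 low libraries were compared with 3 high ones.

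By library name, the log2 difference of 598 to 606 minus the 300s was 0.66 for Msln (SE 0.16), 0.75 for Wt1 (SE 0.25), 0.78 for Lrrn4 (SE 0.17), 0.88 for Gpm6a (SE 0.19) and 1.16 for Upk3b (SE 0.25). The count past the threshold was 4 of 5, all but Wt1, against 1.64% of all genes (265 genes). This comparison draws on the 3 groups that hold both name ranges, and there the name range and the RT1-CE16 class coincide. Within the control-diet groups, where every name is in the 300s, the mean of the RT1-CE16-high libraries was still above that of the low ones for all 5 genes. The ratio of class means there was 1.39 and 1.64 for Msln, 1.60 and 1.53 for Lrrn4, and 1.74 and 1.59 for Gpm6a in sham and Glenn control. It was 1.91 and 1.62 for Wt1 and 2.24 and 1.52 for Upk3b, and for these 2 genes the classes overlapped in Glenn control.

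The other mesothelial genes were tested in the same comparison, which was added after seeing the data. Since 5 of the 8 mostly mesothelial ones closely follow the 5 chosen genes, these calls are no independent result. All 8 genes mostly of mesothelium were higher in RT1-CE16-high libraries by edgeR, with a median log2 difference of 0.85 against -0.01 over all genes. Of all genes 6.53% passed. Tbx18 was higher by 1.18 (SE 0.15, edgeR adjusted p 1.00e-05) and Bnc1, a zinc finger protein, by 1.06 (SE 0.11, edgeR adjusted p 1.88e-07). Aldh1a2, which makes retinoic acid, was higher by 0.94 (SE 0.11, edgeR adjusted p 3.55e-06), and Cldn15 by 0.49 (SE 0.13, edgeR adjusted p 0.0215, or 0.0539 without Glenn control replicate 4). Of the 7 shared genes, 1 was higher, Efemp1, an extracellular matrix protein (0.37, SE 0.10, edgeR adjusted p 0.0208). Krt7 and Pdpn, which rose after surgery, differed by 0.27 (edgeR adjusted p 0.308) and 0.29 (edgeR adjusted p 0.163). Between name ranges, 7 of the 8 genes were higher, all but Cldn15, and 0 of the 7 shared genes (2 at an unadjusted p under 0.05 by edgeR). Of all genes 1.64% passed there.

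Markers of other cell types were summed in the same libraries. The 5 genes together held 505 to 977 CPM in the high and 263 to 697 CPM in the low libraries. The 8 endothelial markers held 6144 to 10288 and 6393 to 9622 CPM, and 1 of them differed (Emcn, lower by 0.32). The 7 type 2 alveolar markers held 27318 to 49881 and 26232 to 63554 CPM, with 0 called by edgeR and 0 at an unadjusted p under 0.05. Fibroblast markers held 1909 to 4836 and 1410 to 3775 CPM, and 2 of 8 were higher, the collagens Col3a1 (0.39) and Col1a2 (0.38), while the median of the 8 was -0.24. Of type 1 alveolar markers 1 of 8 was higher (Spock2, 0.67). In that list 8 of 8 were above 0 (median 0.31), 3 of them at an unadjusted p under 0.05 by edgeR. Of leukocyte markers 1 of 5 was higher (Csf1r, 0.69), with 4 of 5 above 0 (median 0.55) and 2 at an unadjusted p under 0.05 by edgeR. The leukocyte sums were 9039 to 19625 and 8074 to 24466 CPM. In mural and lymphatic lists 1 gene each was lower. The defining markers Col1a1, Pdgfra, Acta2 and Ptprc were detected in every library, with lowest values of 78.3, 2.07, 14.7 and 0.569 CPM. What part these cells had in the difference was not tested.

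The diets were compared within each surgery. In the fit with the name range, all 5 genes stood lower in Glenn excess than in Glenn control. The log2 difference was -0.80 for Msln (SE 0.21), -0.82 for Wt1 (SE 0.33), -0.89 for Gpm6a (SE 0.25), -1.14 for Lrrn4 (SE 0.23) and -1.32 for Upk3b (SE 0.35). The count past the threshold was 1 of 5 (Lrrn4), against 1.47% of all genes (237 genes), and 5 of 5 had an unadjusted p under 0.05, against 13.9% of all genes. DESeq2 passed 4 of 5 (3.28% of all genes) and limma voom 1 (2.19%). The diet groups were part of the choice of the genes, so nothing is read from these counts or from those of the other diet comparisons. The group means lay closer together than the fitted values. Msln was at 167 ± 61.6 CPM in Glenn excess and 212 ± 70.9 CPM in Glenn control (SD, n = 5 each). The fit allows for the names 598 to 606, which 3 Glenn excess libraries and 0 Glenn control libraries carry. It makes no allowance for the 2 RT1-CE16-high libraries of Glenn control, whose names are in the 300s.

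The size of this difference moved with the treatment of the name range and the RT1-CE16 class. With the RT1-CE16 class as the term, the 5 differences were -0.81 to -0.49, and with no term they were -0.58 to -0.29. Among RT1-CE16-low libraries alone they were -1.38 to -0.51, and among high ones -0.54 to -0.32. They were below 0 for all 5 genes in each of these fits. Low libraries of Glenn excess held Msln at a mean of 106 CPM (n = 2), against 169 CPM in Glenn control (n = 3), and high ones at 208 CPM (n = 3) against 277 CPM (n = 2). Lrrn4 was at 55.0 against 119 CPM in the low and 124 against 182 CPM in the high libraries. Within either class, Glenn excess had the lowest mean of all groups for each of the 5 genes.

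After sham surgery the fit with the name range also gave lower values on the excess diet, with log2 differences of -0.71 for Gpm6a (SE 0.22), -0.77 for Upk3b (SE 0.30), -0.78 for Msln (SE 0.19), -0.80 for Wt1 (SE 0.30) and -0.80 for Lrrn4 (SE 0.20). Here 0 of 5 passed the edgeR threshold, against 0.241% of all genes (39 genes), while 5 of 5 had an unadjusted p under 0.05, against 11.1% of all genes. DESeq2 passed 2 of 5 (1.3% of all genes) and limma voom 2 (0.625%). All sham control libraries carry names in the 300s, so this fit makes no allowance for the 3 RT1-CE16-high ones among them. With the RT1-CE16 class as the term the differences shrank to -0.38 for Msln (SE 0.15), -0.33 for Lrrn4 (SE 0.17), -0.27 for Wt1 (SE 0.27), -0.17 for Gpm6a (SE 0.18) and -0.04 for Upk3b (SE 0.27). Between the low libraries of both groups Upk3b was at 10.1 CPM on the excess (n = 5) and 9.88 CPM on the control diet (n = 2).

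On the deficient diet the fit with the name range also gave differences from control below 0 after either surgery. After Glenn surgery they ran from -0.90 for Upk3b (SE 0.31) to -0.49 for Gpm6a (SE 0.23), and with the RT1-CE16 term from -0.42 to -0.10. The count past the threshold was 0 of 5, against 0.00618% of all genes (1 gene), and 5 of 5 had an unadjusted p under 0.05, against 9.88% of all genes. After sham surgery they ran from -0.62 for Wt1 (SE 0.33) to -0.45 for Gpm6a (SE 0.25), with 0 of 5 past the threshold and 2 with an unadjusted p under 0.05. Over all genes 0% passed there by edgeR, with 844 genes (5.22%) at an unadjusted p under 0.05, and 15 genes passed by DESeq2 and 0 by limma voom. With the RT1-CE16 term the sham differences lay on both sides of 0, from -0.10 to 0.18. They did so with no term as well, from -0.14 to 0.14, while the differences after Glenn surgery were then -0.35 to -0.08.

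**Figure D3:**
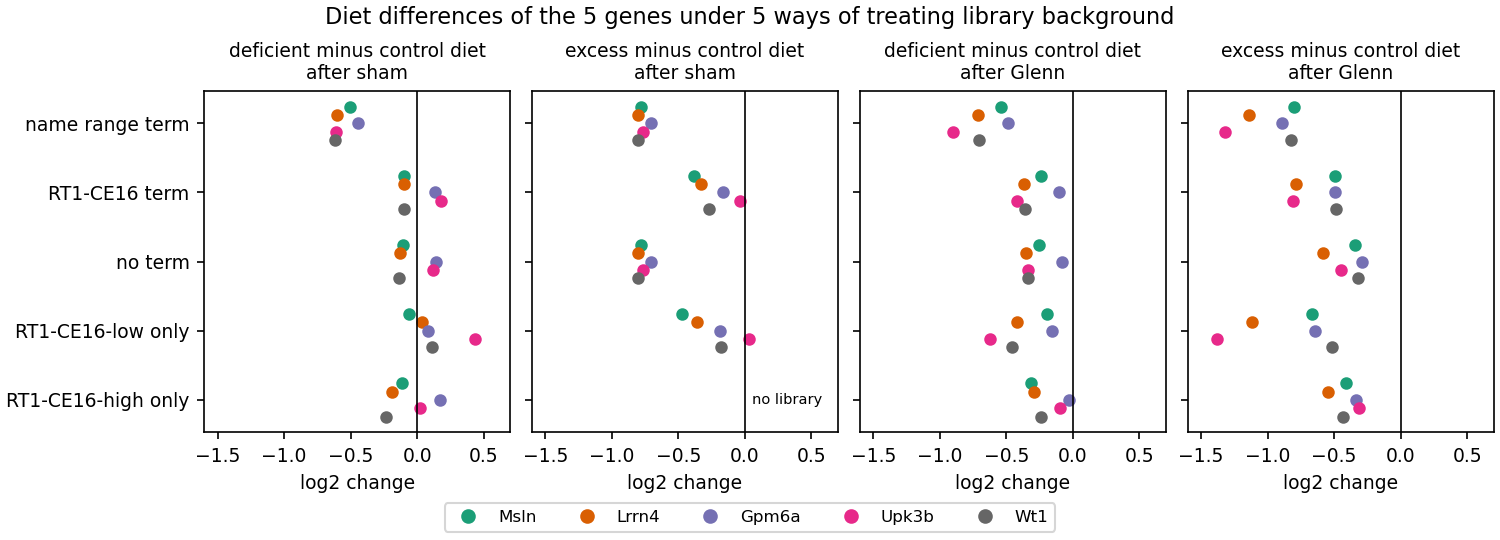
Log2 differences of the 5 genes (colours) between diets within each surgery (panels), with 5 ways of treating the name range and the RT1-CE16 class on the vertical axis. For the excess diet after Glenn surgery every point is below 0, from -1.38 to -0.29, and for the deficient diet after sham surgery points lie on both sides of 0 in each treatment but the name-range term.

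The other mesothelial genes gave tests of the same diets, with the same limit that several of them closely follow the 5 chosen genes. Over all genes 1.47% passed on the excess diet after Glenn surgery, while 7 of the 15 other mesothelial genes fell by edgeR. They were Prg4 (-1.61, SE 0.31, adjusted p 0.00987), Rspo1, a secreted Wnt agonist (-1.21, SE 0.27, adjusted p 0.0230), Bnc1 (-1.17, adjusted p 0.0443), Upk1b (-1.01, SE 0.22, adjusted p 0.0196), Nkain4, a membrane protein that binds the sodium pump (-0.87, adjusted p 0.0233), and the keratins Krt18 (-0.77, adjusted p 0.0233) and Krt8 (-0.76, adjusted p 0.0196). Aldh1a2 stood at -0.98 (SE 0.28, edgeR adjusted p 0.0766). The 8 genes mostly of mesothelium had a median of -0.999, against 0.02 over all genes. With the RT1-CE16 term 2 of the 15 passed by edgeR, Rspo1 and Krt18. With no term it was 0, without Glenn excess replicate 1 or 2 it was 0, and without Glenn control replicate 4 or 5 it was 1. After sham surgery, Prg4 (-1.25, edgeR adjusted p 0.0369) and Upk1b (-0.92, edgeR adjusted p 0.0400) fell on the excess diet, and with the RT1-CE16 term 0 passed. Of all genes 0.241% passed there in the fit with the name range. On the deficient diet 0 of 15 passed after either surgery by edgeR, with 9 of 15 at an unadjusted p under 0.05 in each. Markers beside these results were called rarely. After Glenn surgery the excess diet gave 0 of 8 endothelial, 0 of 7 type 2 alveolar and 0 of 8 fibroblast calls by edgeR (1, 1 and 0 at an unadjusted p under 0.05), and 1 of 8 type 1 alveolar markers was lower (4 at an unadjusted p under 0.05). Type 1 alveolar markers were below 0 in 8 of 8 (median -0.48) and type 2 alveolar markers in 7 of 7 (median -0.34). After sham surgery, fibroblast markers were below 0 in 8 of 8 (median -0.47) with 0 called by edgeR and 2 at an unadjusted p under 0.05. Airway markers were below 0 in 4 of 5 (median -0.70) and mural markers in 7 of 8 (median -0.42). Of these, 0 were called by edgeR in either list, and 3 airway and 2 mural markers had an unadjusted p under 0.05. Type 1 alveolar markers were below 0 in 7 of 8 (median -0.26), and the type 2 alveolar median was -0.01. What part those cells had was not tested.

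The 5 genes varied together. After group means were removed from log2(CPM + 1), the 10 pairs had Pearson correlations of 0.80 (Wt1 with Upk3b) to 0.95 (Msln with Lrrn4) over 30 libraries, and Spearman correlations of 0.84 to 0.93. Among the 17 RT1-CE16-low libraries they were 0.53 to 0.90, and among the 13 high libraries 0.70 to 0.90. The 4 lowest in the low libraries, 0.53 to 0.69, all involved Upk3b. Points of all pairs share the same libraries, scaling and depth. Each gene correlated with the mean of the other 4 at 0.96 for Lrrn4 and Gpm6a, 0.95 for Msln, 0.90 for Wt1 and 0.89 for Upk3b.

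The genes most like the 5 were found by the same measure, Pearson r with their mean over 30 libraries after removal of group means, among 12717 genes with at least 1 CPM on average and a proper symbol. The leading ones were Aldh1a2 (0.97), Upk1b (0.97), Rspo1 (0.97) and Nkain4 (0.96), all from the genes listed as mostly mesothelial. Gpc3, a surface proteoglycan, followed at 0.96, then Itgbl1 (0.95), Steap4, a metalloreductase (0.95), and Ptgis, which makes prostacyclin (0.94). Ptgs1, a cyclooxygenase, stood at 0.93, C4a, a complement protein with a near-identical copy and so an uncertain value, at 0.93, and the kinase Mylk3 at 0.93. Tcf23 and Fcgr2a reached 0.92, Bnc1 0.92 and Prr15 0.91. Of the 8 tested genes mostly of mesothelium, 5 were among these 15. The median r over all 16171 genes was -0.01, and 202 genes (1.25%), the 5 themselves included, had an r of at least 0.7.

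Likeness also held within the RT1-CE16 classes for most of the 15. Upk1b had an r of 0.99 in the low and 0.91 in the high libraries, and Aldh1a2 had 0.90 and 0.92. The lowest were Fcgr2a at 0.59 in the low libraries and Mylk3 at 0.69 in the high ones. Without Glenn deficient replicate 5 and Glenn excess replicate 3, the libraries in which the 5 genes stood highest above their group, the r of Aldh1a2 was 0.97 and that of Upk1b 0.97. The other mesothelial genes were less like the 5. Tbx18 had an r of 0.85 overall but 0.49 and 0.28 within the low and high classes, Prg4 had 0.67 overall but 0.09 and 0.29, and Cldn15 had 0.62 overall but 0.01 and 0.69. Krt7 stood at 0.31, Pdpn at 0.40 and C3 at -0.15.

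**Figure D4:**
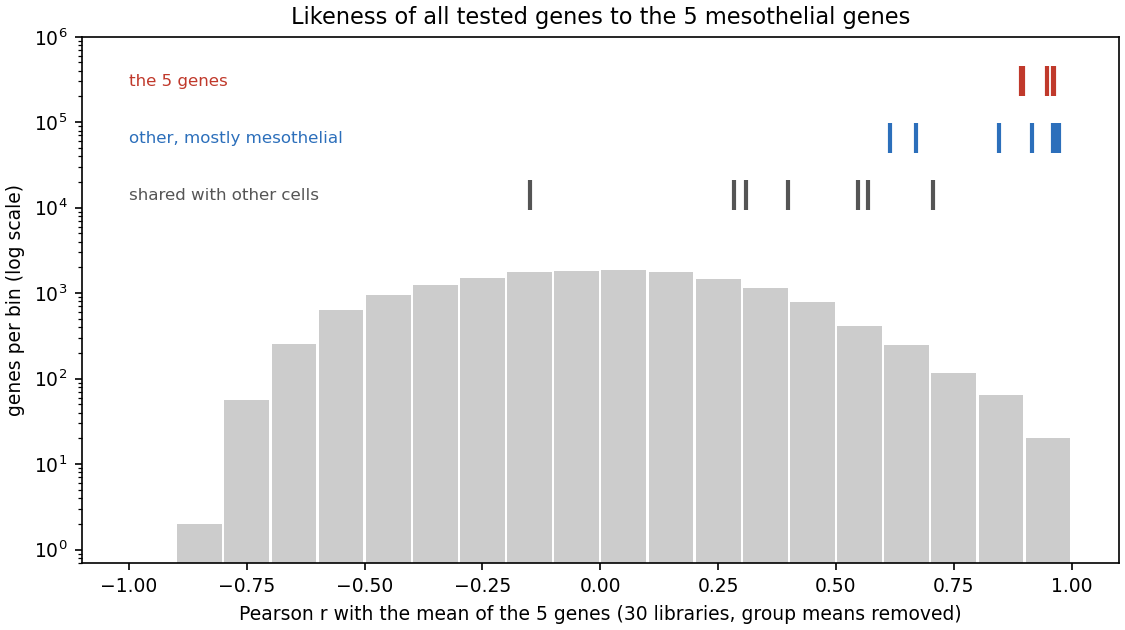
Number of tested genes (vertical axis, log scale) by their Pearson r with the mean of the 5 genes (for each of the 5, of the other 4) over 30 libraries after group means were removed. Ticks above the bars mark the 5 genes (0.89 to 0.96), 8 other mostly mesothelial genes (0.62 to 0.97) and 7 genes shared with other cells (-0.15 to 0.71).

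For the 15 most similar genes, surgery averaged over diets gave log2 differences of -0.20 to 0.16. By RT1-CE16 class all 15 were higher (0.43 to 1.06), against 6.53% of all genes called. By name range 12 were higher, against 1.64% of all genes called. On the excess diet after Glenn surgery all 15 lay below 0 (-1.67 to -0.48) and 9 passed, against 1.47% of all genes. These genes were picked for following the 5 within groups across the same libraries, so the counts describe them and test nothing.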

How the data were processed

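RNA of 30 sorted lung-cell samples was sequenced after SMART-Seq v4 library preparation, per the labels' protocols. The authors deposited a table of estimated counts per gene. The submitters' processing notes name FastQC, Trim Galore, Picard, STAR and Salmon and the builds mRatBN7.2 and rn7, without roles. Versions and strandedness are not given in the sources used here. All 30 columns were used and 0 left out. Of the values 13.6% were not whole, and all were rounded.

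Genes were kept by filterByExpr (minimum count 10, minimum total 15), scaled by TMM (factors 0.938 to 1.06) and fitted with edgeR 4.0.16 (quasi-likelihood, robust). The design held 6 group means and a term for the library name range. Benjamini-Hochberg adjustment covered all 16171 genes, and an adjusted p under 0.05 is a call. CPM are after TMM. Standard errors were taken as the size of the log2 change over the root of the F statistic.

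The members and gene lists were chosen with earlier results of these data known. Named are the 5 members, 2 lists of other mesothelial genes, defining markers of other cells and the 15 genes most like the members. Single genes of the other-cell lists that passed by RT1-CE16 class were named after their values were seen. The RT1-CE16 comparison (at 100 CPM) was added after seeing the data. Alternatives were no term, the RT1-CE16 term, single name or RT1-CE16 classes, DESeq2 1.42.0 and its size factors, limma voom 3.58.1, no filter, a replicate block and each library left out. Steps were tested on simulated data. Same-group libraries differed by more than sampling noise (60 pairs, chi-square per degree of freedom 20.5 to 122). R 4.3.3 and matplotlib 3.10.9 were used.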

Additional observations from a re-analysis of the deposited data

Results flagged for a closer look

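Glenn control replicate 2 was the 1 library set apart in a group of 5. Its total of 77.6 M counts lay far above the 38.2 to 42.0 M of the other 4, a gap of 0.904 of the group's range. Its member values lay inside the range of the group. Over the 36 sets of 5 values examined, which were the levels of the 5 genes and the totals in each group, 1 was set apart, and chance gives about 1.8. No gene of the 5 moved in opposite directions without overlap on 2 diets.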

How the results depend on the processing

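Counts are of 15 other mesothelial genes past an edgeR adjusted p of 0.05 unless another tool is named; the cause of each shift was not tested. For the excess diet after Glenn surgery the count of 7 became 0 with no name-range term and 0 with a replicate block, 3 with names in the 300s only, 2 with the RT1-CE16 term (2 with sex, read from Ddx3y, added), and 1 in RT1-CE16-low or RT1-CE16-high libraries alone. Leaving out 1 library gave 0 (Glenn excess replicate 1 or 2) to 8. For the excess diet after sham surgery the count of 2 became 0 with no term, with names in the 300s only, with no filter, in RT1-CE16-low libraries and with the RT1-CE16 term (0 with sex added), and 4 by DESeq2; leaving out 1 library gave 0 to 4. For the deficient diet after Glenn surgery the count of 0 became 2 by DESeq2 and 2 by limma voom, and leaving out 1 library gave 0 to 2. For Glenn surgery the count of 2 became 1 in RT1-CE16-low libraries on the control diet and 1 on the excess diet, 0 on the excess diet with names in the 300s only, and the averaged count of 4 became 2 to 6 without 1 library. Between name ranges the count of 7 became 0 with a replicate block and 3 (without Glenn excess replicate 1) to 7 without 1 library. For the excess diet after Glenn surgery the 5 genes with no term stood at -0.58 (Lrrn4) to -0.29 (Gpm6a), with Msln at -0.34 and Upk3b at -0.45. In RT1-CE16-high libraries they stood at -0.54 (Lrrn4) to -0.32 (Upk3b), with Gpm6a at -0.33. The genes not named here lay inside these ranges.

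No label ties same-numbered libraries together, and the replicate number was not taken as a pairing: deviations correlated at -0.25 to 0.29 in 75 same-numbered pairs, 38 of them over 0.1. That 15 of 30 libraries correlated best with their own number settles no pairing, since same-numbered libraries partly share sex and RT1-CE16 class. In every group replicate 1 was male by Ddx3y and RT1-CE16-low, and replicate 2 was female and low. Names 598 to 606 occur only among replicates 3 to 5, so the replicate block overlaps with the name range. With the block, 0 of 5 members passed between name ranges (0.36 to 0.77, 0 of all genes) and 0 of 5 on the excess diet after Glenn surgery (34 of all genes). Glenn excess, sham control and sham deficient each rest on 2 RT1-CE16-low libraries, and Glenn control and Glenn deficient on 2 high ones. Sham excess had 0 high libraries, and low counts limit Wt1, Upk3b and Tbx18.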

Other observations

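Genes that follow the 5 mesothelial genes within groups took a large share of some short lists of called genes. The threshold of 0.7 on r was chosen after seeing the data. Of all tested genes, 1.25% had an r of at least 0.7, and all counts and shares here include the 5 genes themselves. Of the 5, 1 was called on the excess diet after Glenn surgery with either term, and 0 after sham surgery. By name range 4 of the 5 were called, and by RT1-CE16 class 5. Among the 93 genes lower on the excess diet after Glenn surgery 41 (44.1%) did, which is 20.3% of the like genes, and among the 144 higher genes 0 did. With the RT1-CE16 term it was 14 of 29 lower genes (48.3%). After sham surgery it was 7 of the 14 genes lower on the excess diet (50%, or 3.47% of the like genes). Among the 114 genes higher in libraries named 598 to 606 it was 64 (56.1%), and among the 572 higher in RT1-CE16-high libraries 188 (32.9%). Of the 3790 genes higher and 4002 lower after Glenn surgery averaged over diets, 1.35% and 0.675% were such genes. At a threshold of 0.8, met by 0.526% of all genes, the share was 30.1% of the genes lower on the excess diet after Glenn surgery. Likeness and these comparisons come from the same libraries, so the shares are a description and no test.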
